A study of Mus musculus with 12 samples.

Results

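Lipocalins are small secreted proteins that fold into a barrel around a pocket for a small hydrophobic molecule. Several of them are made in the glands that cover the nasal lining with mucus, and these are called odorant-binding proteins because they hold odorants in that mucus. The genes described here were taken from a list of 10 names, of which 8 genes could be measured, among 19937 genes on the array. Each had 1 probe that carries a single gene symbol. Obp1a, Obp2a, Lcn2, Lcn3, Lcn4, Lcn11 and Mup5 were found under their own symbols. The name Lcn14 is an older symbol of Obp2b in RefSeq (GRCm38.p6), and Lcn13 is an older symbol of Obp2a, so both names of the latter are 1 gene. Mup4 had no probe with a single symbol and was not analysed here.

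The samples were 12 pools of RNA from the olfactory epithelium, the sensory lining at the back of the nose, with its neurons, supporting cells and glands. Each pool held equal amounts of RNA from 4 male C57BL/6 mice, 48 mice in all, and was read on 1 array. The mice had lived under a light and dark cycle of equal parts, were moved to constant darkness, and were killed every 4 h from circadian time (CT) 12 to CT56. In CT, hours 0 to 12 make up the subjective day, when mice rest, and hours 12 to 24 the subjective night. There are thus 6 phases of the day with 2 pools each, 24 h apart, and no strain, genotype or treatment differs between pools. The labels give no age and name no batch of dissection or array. The p-values below measure the spread between pools, not between mice. The question the design asks is which transcripts follow the time of day. For these secretory genes it has to be held apart from how much gland each pool of dissected tissue contained.

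Odorant-binding proteins are thought to carry hydrophobic odorants through mucus to the receptors, or to clear them from it. Mup5 belongs to the major urinary proteins, lipocalins that bind pheromones and are made in liver and in several exocrine glands. Lcn3 and Lcn4 encode lipocalins known from glands that feed the vomeronasal organ. Lcn2 differs in kind, since its protein binds bacterial iron carriers and is a product of neutrophils and of stressed epithelia. Among the genes of chromosome 2 with an Lcn or Obp symbol, in RefSeq's order, Obp2a, Obp2b, Lcn3 and Lcn11 follow each other. Lcn9, Lcn4 and Lcn2 lie further along. Genes of other names between them were not looked for. Obp1a lies on chromosome X and Mup5 on chromosome 4.

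The stretches upstream of the start sites of Obp1a, Obp2a, Obp2b and Lcn11 are shown because these genes turned out to share the order of their pools or, for Obp2b, nearly the sequence of a neighbour. They are the 250 bases before each gene's start in RefSeq (GRCm38.p6), printed 5′ to 3′ on the gene's strand, with TATAAA, the core of the TATA box, in capitals.
Obp1a, chrX:78091375-78091624 (- strand): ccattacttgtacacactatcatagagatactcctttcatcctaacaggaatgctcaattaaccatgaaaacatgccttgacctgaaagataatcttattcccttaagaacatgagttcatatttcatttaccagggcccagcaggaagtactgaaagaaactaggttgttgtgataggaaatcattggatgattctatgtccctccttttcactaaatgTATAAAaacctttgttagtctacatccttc
Obp2a, chr2:25699824-25700073 (+ strand): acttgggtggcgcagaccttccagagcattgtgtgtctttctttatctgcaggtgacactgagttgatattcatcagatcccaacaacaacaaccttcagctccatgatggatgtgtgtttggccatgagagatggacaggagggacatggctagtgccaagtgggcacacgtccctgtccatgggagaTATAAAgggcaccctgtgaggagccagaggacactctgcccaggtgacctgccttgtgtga
Obp2b, chr2:25736757-25737006 (+ strand): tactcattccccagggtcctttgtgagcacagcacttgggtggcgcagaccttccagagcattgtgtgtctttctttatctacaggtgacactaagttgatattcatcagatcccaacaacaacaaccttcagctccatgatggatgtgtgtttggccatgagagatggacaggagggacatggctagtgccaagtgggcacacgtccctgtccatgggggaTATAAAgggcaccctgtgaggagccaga
Lcn11, chr2:25776767-25777016 (+ strand): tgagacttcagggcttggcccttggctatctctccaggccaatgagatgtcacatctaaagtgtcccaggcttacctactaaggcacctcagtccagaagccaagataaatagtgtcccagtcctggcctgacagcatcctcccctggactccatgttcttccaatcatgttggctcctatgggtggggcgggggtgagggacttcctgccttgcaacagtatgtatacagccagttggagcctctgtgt
A window of 300 bases around the start, which reaches 50 bases into the transcript, was found for 7 of the 8 genes, and for Mup5 none was printed. TATAAA was in 4 of these 7 windows on the gene's strand, against 13.6% of 32851 windows of the same length, with both strands searched. It began 30 bases before the start in Obp1a, 61 in Obp2a, 28 in Obp2b and 29 in Lcn3. The E-box of clock factors, CACGTG, was in 0 of 7 windows (7.15% of all), and the D-box TTATGTAA also in 0 of 7 (0.938% of all). AGGTCA, a binding word of ROR and REV-ERB factors, was in 3 of 7 windows, those of Obp1a, Obp2a and Obp2b (16.3% of all). All 3 matches were on the other strand, 172 bases before the start in Obp1a and 17 in Obp2a. In Obp2b the match was at -16, inside the transcript. The windows of Obp2a and Obp2b are nearly 1 sequence, as given below, so their matches, also of TATAAA, are not 2 separate cases. None of the 4 motifs contains another, and a match is a string of letters, not a shown site. The windows of Obp2a and Obp2b were 98.5% identical over 267 aligned bases, with 4 mismatches and 0 gaps. Genes this alike can share signal on an array, so the values of Obp2b next to those of Obp2a are uncertain. How far the probe of one reads the other was not tested.

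Obp1a, Obp2a, Lcn11 and Mup5 went up and down over the series by 29.2-fold or more, far beyond most genes. Obp1a, an odorant-binding protein of the nasal glands, read 8.62 at its lowest, in the CT48 pool, 11.49 at the median and 13.49 at its highest, in the CT44 pool (log2 intensity, 12 pools). The pools at both ends of this 29.2-fold range are thus neighbours in time, 4 h apart. Obp2a ran from 8.64 at CT48 through a median of 11.11 to 13.73 at CT32, and read 13.33 at CT44. Lcn11 ran from 8.43 at CT48 to 13.74 at CT32, a 39.7-fold range, and read 13.61 at CT44. For all 3 genes the CT32 and CT44 pools were highest, CT24 came next, and CT40 and CT48 were lowest. Mup5 kept that order at both ends, from 6.00 at CT48 to 11.16 at CT44, with 10.84 at CT32 and 10.76 at CT24. Its range was 35.8-fold, and that of Obp2a 34.2-fold. CT32 lies in the subjective day and CT44 in the subjective night.

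The other 4 genes moved less. Obp2b ran from 6.93 at CT48 to 8.86 at CT32, a 3.82-fold range, with CT44 at 8.54 and CT40 and CT48 lowest again. Lcn3 read 5.13 to 6.00 and Lcn4 4.76 to 5.45, and both were highest at CT32 and next highest at CT44. Their CT24 pools stood low, 11th and 12th of 12, which sets them apart from the order seen in Obp1a. Both probes also lay among the lowest 25% of genes by mean level, and whether they read above background is not given in the sources used here. Lcn2 had an order of its own. It was highest at CT48, with 11.58, and at CT36, with 11.31, and lowest at CT16, with 9.45 (median 9.98). The pool in which Obp1a, Obp2a, Lcn11, Obp2b and Mup5 were lowest was the one in which Lcn2 was highest.

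**Figure D1:**
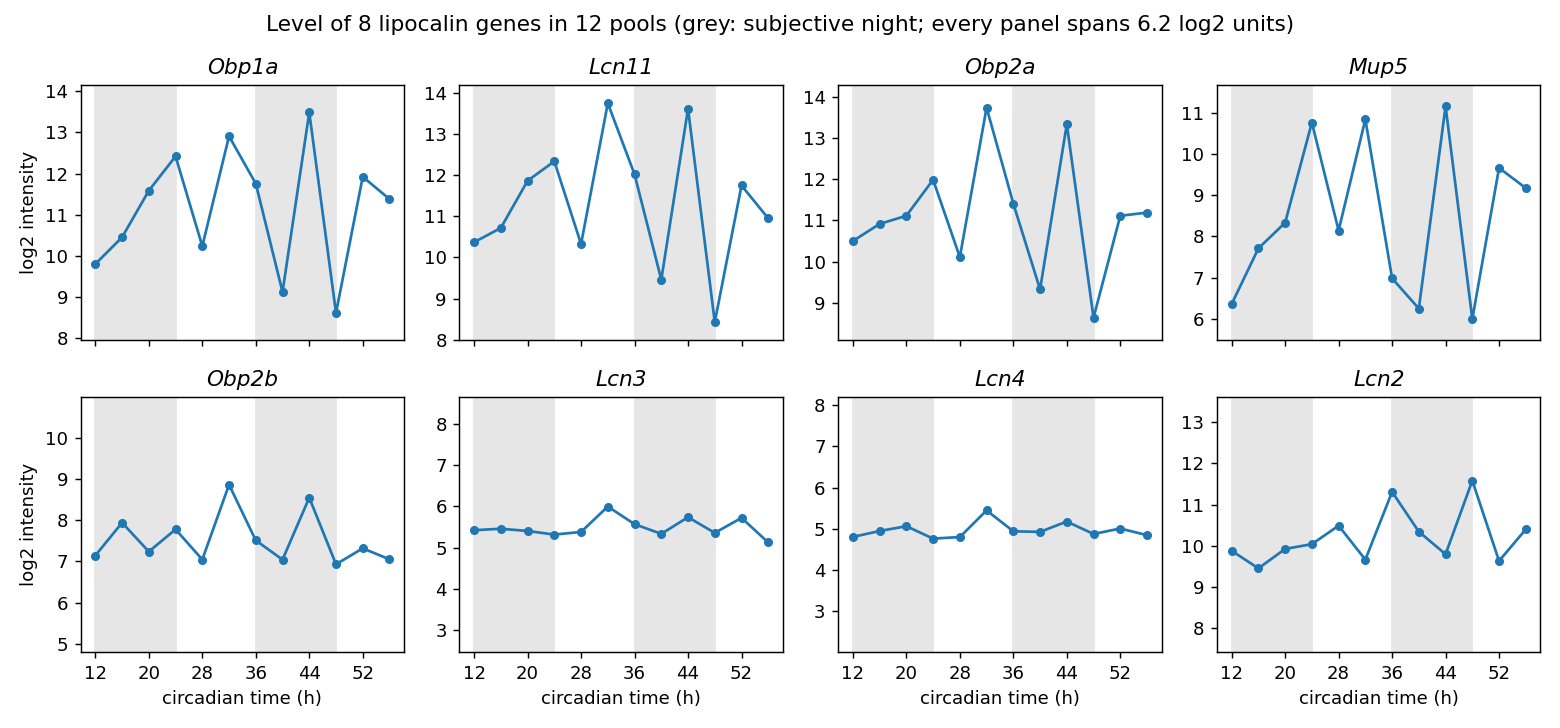
Log2 intensity (y axis) of each of the 8 lipocalin genes in the 12 pools, by circadian time in hours (x axis); each point is 1 pool of 4 mice, and grey marks the subjective night. All panels span the same number of log2 units. Obp1a, Lcn11, Obp2a and Mup5 share peaks at CT32 and CT44 and a low at CT48, where Lcn2 is highest.

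The spread of these genes was among the widest on the array. Ranked by SD over the 12 pools among 19937 genes, Mup5 came 4th with 1.87, Lcn11 9th with 1.57, Obp1a 10th with 1.51 and Obp2a 11th with 1.46. Lcn2 ranked 38th (SD 0.66) and Obp2b 41st (0.63), while Lcn3 ranked 1307th (0.24) and Lcn4 3140th (0.19). An SD over 0.5 was reached by 6 of the 8 genes, against 0.391% of all genes. Among the 18 other measured lipocalins of 36 listed, 0 reached it. They include retinol-binding Rbp4, apolipoprotein Apod and the epididymal lipocalins that precede Obp2a on chromosome 2. Their SDs lay between 0.079 and 0.196, and the median over all genes was 0.134. Gm14743, which lies near Obp1a and Obp1b on chromosome X, is not on that list of other lipocalins. Its SD was 1.62, so a wide spread was not confined to the 8 genes. The list of the 8 genes was drawn up with these data known, so their wide spread is a description.

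Pools taken at the same phase, 24 h apart, differed widely in the genes that moved most. Between CT24 and CT48 Obp1a fell from 12.42 to 8.62, 13.9-fold. In the same pair Lcn11 differed 14.9-fold, Obp2a 10.2-fold and Mup5 27.2-fold. The direction alternated from phase to phase. In Obp1a the later pool was higher at phases 12, 20 and 4 h and lower at 16, 0 and 8 h, and the same signs held for Obp2a, Lcn11, Mup5 and Obp2b. Over the 6 pairs, the median difference was 1.79 log2 units for Obp1a, 1.91 for Obp2a, 1.70 for Lcn11 and 1.59 for Mup5. Obp2b and Lcn2 each had a median of 0.87, Lcn3 one of 0.24 and Lcn4 one of 0.13. The widest pair was CT32 with CT56 for Obp2b (3.51-fold), Lcn3 (1.83-fold) and Lcn4 (1.52-fold), and CT24 with CT48 for Lcn2 (2.91-fold). Dbp and Arntl, clock genes that serve as a check on the time of day, differed by at most 1.09-fold and 1.12-fold between pools of the same phase.

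**Figure D2:**
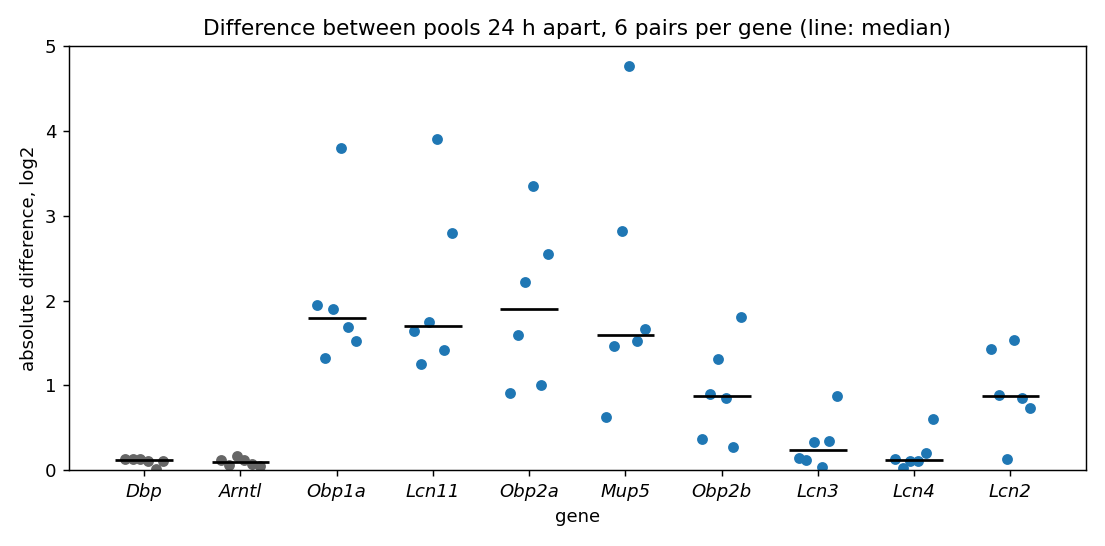
Absolute log2 difference between the 2 pools of the same phase, 24 h apart (y axis), for Dbp, Arntl and the 8 lipocalin genes (x axis); each point is 1 of 6 pairs and the line is their median. The clock genes lie near 0, and Obp1a, Lcn11, Obp2a and Mup5 have medians between 1.59 and 1.91 with single pairs up to 4.77.

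A 24 h cosine was then fitted to every gene with limma. The array held the clock: Dbp had an amplitude, the distance from mean to peak, of 0.51 ± 0.05 (SE, 12 pools; limma, adjusted p = 0.00173), and Arntl one of 0.35 ± 0.04 (limma, adjusted p = 0.0141). By limma, 0 of the 8 lipocalin genes reached an adjusted p under 0.05 and 0 an unadjusted one, where 5 genes passed in all, 0.0251% of those tested. Mup5 came nearest, with an amplitude of 1.06 ± 0.61 and a fitted peak at CT 2.4 (limma, adjusted p = 0.9961). Obp1a had an amplitude of 0.32 ± 0.53, Obp2a one of 0.27 ± 0.52 and Lcn11 one of 0.17 ± 0.56. In these 3 genes the standard error exceeded their own amplitude and also that of Dbp, 0.51. For the latter reason a rhythm of a size like that of Dbp would not have been detectable in them. Single pools moved these amplitudes by over 1.5 times. Obp1a had 0.84 without CT48 and 0.067 without CT40, Obp2a had 0.82 and Lcn11 0.71 without CT44, and Mup5 had 1.70 without CT48, with none passing in limma. Lcn2 had an amplitude of 0.12 ± 0.24 and Obp2b one of 0.09 ± 0.23, and Lcn3 and Lcn4 had 0.05 ± 0.09 and 0.03 ± 0.08. Among the 18 other lipocalins 0 passed and 0 were under 0.05 unadjusted, with amplitudes of at most 0.12, the smallest p being that of the complement lipocalin C8g.

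With the 6 phases as free levels, and no shape assumed, limma called 0 of the 8 genes (0 also without adjustment), while it called 17 genes in all, 0.0853%. Pools of the same phase held 57.6% of the variance of Obp1a, 57.6% of that of Obp2a and 59.4% of that of Lcn11. The share was 49.8% for Mup5, 55.0% for Lcn4, 67.5% for Lcn2, 76.8% for Obp2b and 84.4% for Lcn3. Over all genes the median share was 43.4%, and it was 2.19% for Dbp and 4.28% for Arntl. The adjusted p of the 8 genes lay between 0.346 and 0.930 (limma). With 6 of 11 degrees of freedom within phases, genes with no difference among phases would be at 54.5% on average. Obp1a, Obp2a, Lcn11, Lcn4 and Mup5 lay within 5 points of that average, and Lcn2, Obp2b and Lcn3 above it. Single genes scatter around that average, so a share near or above it does not show that a gene has no such difference. Single pools moved these shares. Without CT24 that of Mup5 was 23.9%, that of Obp1a 30.9%, that of Lcn11 32.9% and that of Obp2a 34.9%. Without CT56 that of Lcn3 was 28.5% and that of Lcn4 11.2%. Other pools moved them up, as for Obp1a with 66.3% and Lcn11 with 68.4% without CT44. Leaving out 1 pool of a phase also takes the spread of that pair out of the share.

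The subjective night was set against the subjective day, 6 pools each, with CT24 and CT48 counted as day. Mup5 read 7.80 ± 1.83 (SD, n = 6) at night and 9.10 ± 1.83 by day, with night values from 6.25 to 11.16 and day values from 6.00 to 10.84. The groups overlap over nearly their whole range, and the difference, night minus day, was -1.30 ± 0.84 (SE; limma, adjusted p = 0.528). For Obp1a night minus day was -0.21 ± 0.72, for Obp2a -0.03 ± 0.70 and for Lcn11 0.08 ± 0.76. The sign of these last 3 changed when single pools were left out. That of Mup5 did not, with -1.97 without CT44 and -0.95 without CT32 as the ends, and it passed in no such fit. Of the 8 genes 0 passed, and of all genes 0 passed (0%), while 1965 genes, none of them among the 8, had an unadjusted p under 0.05 in limma. The adjusted p of the 8 genes lay between 0.528 and 0.989.

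Between the cycles, with phase as a factor, Lcn2 read 10.51 in the second cycle on average and 9.91 in the first, a difference of 0.60 ± 0.26 (SE; limma, adjusted p = 0.352). It was higher in the later pool in 4 of 6 phases. Obp2a differed by -0.56 ± 0.61, which was -0.001 without CT24 or CT48 and -1.11 without CT20 or CT44. In the fit of all pools, 7 of the 8 genes had a lower mean in the second cycle, with Lcn2 the exception. Of all 19937 genes 7642 had a higher mean in the second cycle, so a lower one was common. Several of the 7 also moved together, as given below, and are not separate cases. In limma 0 of the 8 genes and 0 genes in all passed (0%), and 1 of the 8 and 2625 in all had an unadjusted p under 0.05. Time in darkness and any batch that runs with the cycle cannot be told apart here.

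The members that moved most moved together. Since Obp1a is the classical odorant-binding protein of the list, its level was used as a ruler for each pool, in a fit chosen after the data had been seen. In it a slope of 1 means that a gene changes by the same fold as Obp1a. In limma, 6 of 19936 genes passed, 0.0301%, and all 6 had a positive slope (0.0301%). Of the 7 other lipocalin genes of the list, 3 were among them. Lcn11 had a slope of 1.02 ± 0.06 (SE, 12 pools; adjusted p = 1.795e-07, limma), Obp2a one of 0.91 ± 0.08 (adjusted p = 3.332e-05, limma) and Mup5 one of 1.12 ± 0.14 (adjusted p = 0.00177, limma). Each of the 3 passed also when any single pool was left out. Without CT32 and CT44 together, Lcn11 had 0.94 and Obp2a 0.75, and both still passed, while Mup5 had 1.04 (limma, adjusted p = 0.405). Within the 6 pools of the first cycle the slopes were 1.04 for Lcn11, 0.94 for Obp2a (limma, adjusted p = 0.130) and 1.33 for Mup5, and within the second 1.00, 0.89 and 1.01 (adjusted p of Mup5 = 0.850, limma).

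Obp2b rose with Obp1a at a lower slope, 0.31 ± 0.07, which did not pass over all genes (limma, adjusted p = 0.999), as did Lcn3 with 0.09 ± 0.04 and Lcn4 with 0.07 ± 0.03 (adjusted p = 0.999 each, limma). Lcn2 had a slope of -0.20 ± 0.10 (limma, adjusted p = 0.999), which was -0.069 without CT48. The other 3 genes that passed, named after their values were seen, were Gm14743, BC051076 and 2310057J18Rik. Gm14743 lies near Obp1a on chromosome X, with 2 coding genes between them, and followed it with a slope of 1.07 ± 0.02 (limma, adjusted p = 3.815e-14). Obp1b lies between Obp1a and Gm14743. The probe of Gm14743 may share signal with that of Obp1a, which was not tested. BC051076, annotated as a long noncoding RNA on chromosome 5, had a slope of 1.05 ± 0.09, and 2310057J18Rik, a coding gene on chromosome 10, one of 1.20 ± 0.13. Of the 18 other lipocalins on the comparison list, which does not hold Gm14743, 0 passed, with slopes between -0.05 and 0.05.

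**Figure D3:**
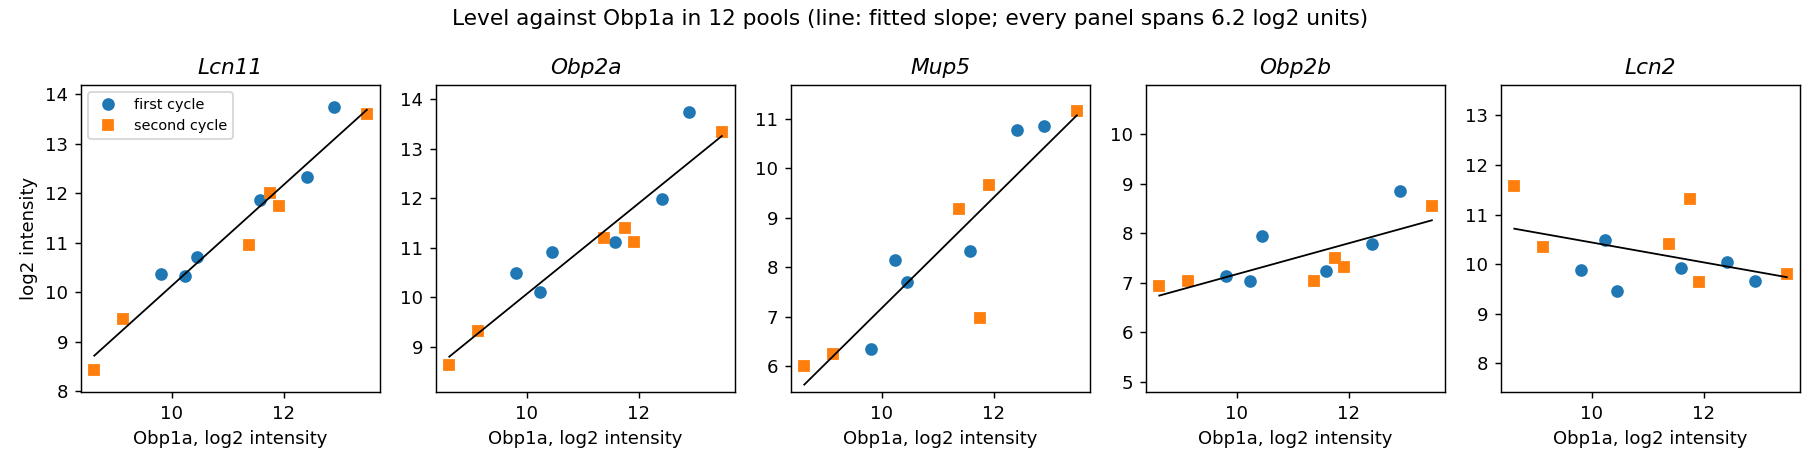
Log2 intensity of Lcn11, Obp2a, Mup5, Obp2b and Lcn2 (y axes) against that of Obp1a (x axis) in the 12 pools; circles are pools of the first cycle and squares those of the second, and lines are the fitted slopes. Lcn11 and Obp2a stay close to a slope of 1, Mup5 has 1 pool far under its line, Obp2b rises less steeply and Lcn2 does not rise.

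Mup5 left the common path in single pools. With each gene set to its own mean, the difference Mup5 minus Obp1a was -2.08 log2 units at CT36, where Mup5 read 6.98 and Obp1a 11.76. It was -0.75 at CT12 and -0.56 at CT20, the next lowest, and 1.04 at CT24, the highest. For Lcn11 the same difference stayed between -0.59 and 0.68, and for Obp2a between -0.78 and 0.86. CT12, CT36 and CT20 were also the 3 pools with the least Bpifb9b, a secreted protein of the lipid-binding BPI fold that nasal glands make. The slope of Mup5 on the Bpifb9b level was 0.44 ± 0.18 (SE, 12 pools; limma, adjusted p = 0.305), in another fit chosen after the data had been seen.

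When the Obp1a level was taken out as a covariate, the 24 h fit still called 0 of the other 7 genes, where 6 genes in all passed (0.0301%). Mup5 then had an amplitude of 0.73 ± 0.23 with a fitted peak at CT 1.9 (limma, adjusted p = 0.998), the 1 gene of the 7 with an unadjusted p under 0.05. Without CT36, the pool in which it lay furthest under Obp1a, the amplitude was 0.444 ± 0.135, with a smaller standard error as well. In the fit of all pools, the standard error of Mup5 was 0.61 without the covariate. Lcn11 had 0.27 ± 0.11 and Obp2a 0.35 ± 0.15 (limma, adjusted p = 0.998 for each). That adjustment removes any time of day that Obp1a itself has, so it measures rhythm relative to Obp1a only.

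Gland content itself was not measured, and other secretory genes stood in for it. An index of 22 gland genes, each scaled to its own spread, was lowest at CT12, with -0.53, and highest at CT28, with 0.50, followed by CT44 with 0.47 and CT32 with 0.31. CT48, the lowest pool for Obp1a, had -0.24. Scaling gives a gene that hardly varied, such as Scgb1c1 (SD 0.05), the same weight as Bpifb9b (SD 2.24). In limma 0 of the 10 BPI fold genes and 0 of the 12 other gland genes passed on the index they help to form. An unadjusted p under 0.05 in limma was reached by 1 and 3 of them. How well the index follows gland content was not tested. Slopes on this index were positive in 7 of the 8 genes, against 12316 of all 19937. Lcn11 had a slope of 2.54 ± 1.03, Mup5 one of 2.49 ± 1.29, Obp1a one of 2.36 ± 0.99 and Obp2a one of 2.07 ± 0.99 (log2 units per unit of the index). Obp2b had 0.87 ± 0.44, Lcn3 0.40 ± 0.16, Lcn4 0.32 ± 0.14 and Lcn2 -0.11 ± 0.51. In limma 0 of the 8 passed (adjusted p between 0.749 and 0.950) and 4 had an unadjusted p under 0.05, where 0 genes in all passed (0%) and 1247 had such a p. These slopes depended on the index and on the weight of single pools. That of Obp1a was 0.42 on an index of Bpifb9a and Bpifb9b, 1.20 on the BPI fold genes alone, 1.28 on the other gland genes and 3.17 on an unscaled index. On the index of 22 genes it was 0.64 with array weights and 3.59 without CT28. Fitted beside this index, the 24 h rhythm called 0 of the 8 (adjusted p between 0.895 and 0.991 in limma) and 5 genes in all, 0.0251%. In this bulk tissue, fewer gland cells and less RNA per gland cell cannot be told apart.

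The gland genes did not form 1 block. Bpifb9b read 5.93 at its lowest, at CT12, 10.40 at the median and 13.12 at its highest, at CT44. It shared its highest pool with Obp1a, but it read 11.57 at CT48, where Obp1a was lowest, with CT44 and CT24 alone above that, and 11.44 at CT28. Its neighbour in the family, Bpifb9a, followed it with a slope of 0.73 ± 0.06 (limma, adjusted p = 1.712e-05), and was the 1 gene that passed on the Bpifb9b level, 0.00502%. Of the 8 lipocalin genes 0 passed in that fit (adjusted p between 0.305 and 0.899, limma). Obp1a had a slope of 0.16 ± 0.16 on Bpifb9b. Pip, which encodes a secreted protein of exocrine glands, read 5.45 at its lowest and 5.63 at the median, but 8.34 at CT44 and 10.65 at CT32. CT32 and then CT44 are the pools highest in Obp2a, Lcn11, Obp2b, Lcn3 and Lcn4 as well. In Obp1a and Mup5 the same pools were highest, with CT44 first. At CT24, the pool next highest in Obp1a, Obp2a, Lcn11 and Mup5, Pip read 5.54, 11th of 12.

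**Figure D4:**
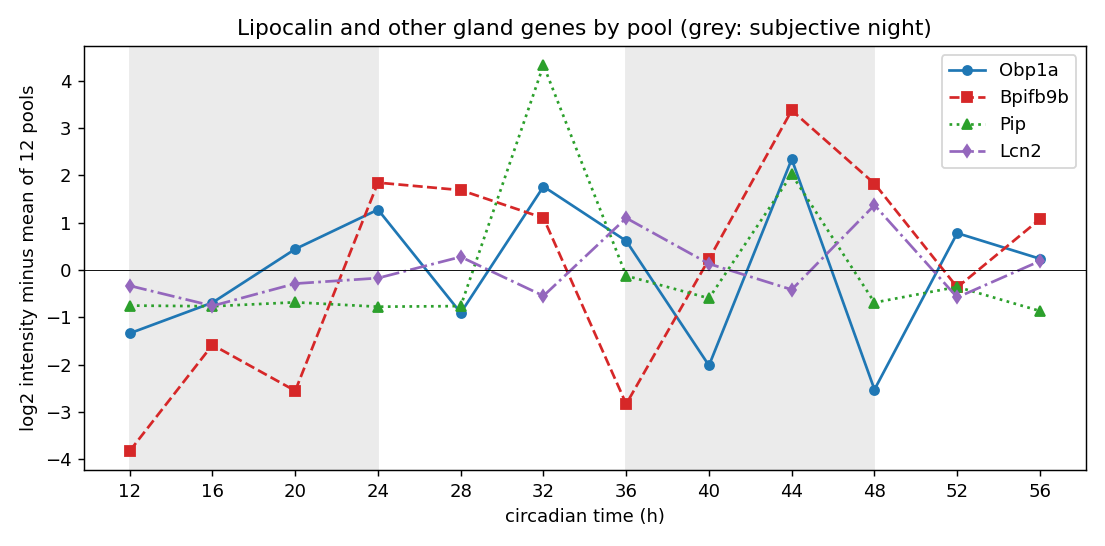
Log2 intensity minus the gene's own mean over 12 pools (y axis) by circadian time in hours (x axis) for Obp1a, Bpifb9b, Pip and Lcn2; each point is 1 pool and grey marks the subjective night. All but Lcn2 are above their mean at CT32 and CT44, while at CT48 Bpifb9b and Lcn2 are high and Obp1a is at its lowest.

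At CT44 the sustentacular markers, genes of the supporting cells, had their lowest list mean over the pools, -0.07 (8 of 8 measured), and mature sensory neuron markers theirs, -0.18 (8 of 8 measured). The list mean of the latter ranged over the pools from -0.18 to 0.17 log2 units, and that of the 8 lipocalin genes from -1.22 to 1.38. At CT32 the mature neuron mean was 0.10. Markers of motile cilia, which lie in the respiratory lining, ranged from -0.19 to 0.19 (7 of 8 measured), and were 0.15 at CT32, 0.02 at CT44 and 0.10 at CT24. Liver markers ranged from -0.21 to 0.23 (7 of 8 measured), with -0.05 at CT44, and vomeronasal neuron markers from -0.10 to 0.18 (6 of 8 measured), highest at CT32. The part of these cell types in the levels of Obp1a and its companions was not tested. Lcn2 is a neutrophil product, and the mean of 12 neutrophil markers (12 of 12 measured) ranged from -0.15, at CT12, to 0.20, at CT20. In the pools highest in Lcn2 it was -0.15 at CT48 and 0.05 at CT36.

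For each gene, the 3 genes outside the 8 whose pattern was most like it were taken by Pearson's r over the 12 pools, as a description with no test. Predicted genes (symbols with Gm and a number, or ending in Rik) and odorant and vomeronasal receptors were left out. Among the 8 themselves, Lcn11 (0.98) and Obp2a (0.95) stood closest to Obp1a, followed by Mup5 (0.90). Outside the 8, BC051076 was the likest gene to Obp1a (r = 0.95), Obp2a (0.99), Lcn11 (0.98) and Mup5 (0.86), and ran from 7.60 at CT48 to 13.00 at CT32. Next came Insl6 for Obp1a (0.83) and Obp2a (0.85), Snx21 for Lcn11 (0.84) and Mrrf for Mup5 (0.80), followed by Lefty1 for Obp1a (0.82) and Lcn11 (0.84), Wfdc18 for Obp2a (0.85) and AI597479 for Mup5 (0.79). Apart from Wfdc18, a small secreted protein with a range of 1.98 log2 units, these next genes varied by 0.63 or less. The likest to Obp2b were Klk14 (0.93), a secreted protease, BC051076 (0.89) and Srm (0.86). Lcn3 had Cyp2c54 (0.92), Dmbt1 (0.91), a mucosal scavenger protein, and Klk14 (0.90). Lcn4 had Rnf148 (0.93), Pip (0.91) and Scgb2b24 (0.89), a secretoglobin. Klk14, Pip, Dmbt1 and Scgb2b24 shared with Lcn3 and Lcn4 their highest pools, CT32 and then CT44. Lcn2 had Clec5a (0.83), a receptor of myeloid cells, Fbxw26 (0.82) and Creg1 (0.78), whose ranges were 0.46 or less against 2.13 for Lcn2.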

How the data were processed

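RNA of 12 pools was hybridised to whole-transcript Affymetrix arrays, per the labels' protocols. The deposited numbers run from 3.48 to 14.47 and were taken to be log2 intensities for that reason; the column medians lie between 7.81 and 7.92. The submitters' processing notes name affy, with no role. What the authors did for background and normalization is not given in the sources used here. As each value is 1 array, the number of arrays limits the precision.

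Of 34760 probes, 22961 are annotated, 21640 with 1 symbol and 1321 with several. A gene took its probe of highest mean, which left 19937 genes. Tests used limma 3.58.1 in R 4.3.3, with Benjamini-Hochberg adjustment over all genes and a threshold of 0.05, and were tested on simulated data. No other tool was run for the tests. The windows around the start sites were aligned in local mode with Biopython 1.88. The genes and lists were chosen with earlier results of these data known. The rule for named genes took all members, of each other list the gene past the threshold or of smallest p, and the 3 likest genes. Genes outside it (Bpifb9a, Gm14743, 2310057J18Rik, Klk14 and Pip beside a gland list) were named after their values were seen. CT56 correlated least with the other pools (mean 0.975, next lowest 0.981). Alternatives were quantile normalization, median centring, a filter at the 25th percentile, the mean of all probes, array weights, 12 h terms, other indices and leaving out each pool. The fits on Obp1a and Bpifb9b, the index of Bpifb9a and Bpifb9b, leaving out CT32 and CT44 together, and each cycle alone were added after seeing the data. Figures used matplotlib 3.10.9.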

Additional observations from a re-analysis of the deposited data

Results flagged for a closer look

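Each of the 8 lipocalin genes was screened for a pool far from the rest among the 6 night pools, the 6 day pools and the 6 pools of each cycle. The measure is the gap to the nearest pool over the range, against Dixon's 95% value of 0.625 for 6 samples. In 32 such groups 3 exceeded it, where chance gives about 1.6 (1 in 20). Lcn3 was high at CT32 among the pools of the first cycle (0.793). Lcn4 was high at CT32 among the day pools (0.642). Obp2b was high at CT44 among the pools of the second cycle (0.641). Obp1a, Obp2a, Lcn11, Mup5 and Lcn2 gave no such pool in the groups screened.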

How the results depend on the processing

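In the 24 h fit and the fit of 6 phases, 0 of the 8 lipocalin genes passed under any alternative run. Counts over all genes moved more. With array weights, whose fit stopped before full convergence in some cases, 17 genes passed between cycles, 149 on the gland index, 32 in the 24 h fit beside it and 1447 in the 24 h fit beside Obp1a, against 0, 0, 5 and 6. In the last, Lcn11 passed, with an amplitude of 0.30 (limma, adjusted p = 0.0322). On the gland index 2 genes passed with BPI fold genes alone, 2 unscaled and 2 with Bpifb9a and Bpifb9b. The 24 h fit beside the index gave 3 with median centring and 2 with BPI fold genes alone. Between cycles 1 passed above the 25th percentile and 11 with the gland index as a covariate. The 24 h fit gave 8 with 12 h terms and 0 without CT32 and CT44, a fit with fewer pools, and the phases then gave 49.

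Leaving out single pools gave 3 to 5 genes in the 24 h fit, 3 to 5 beside the index, 13 to 58 among phases (58 without CT20, 41 without CT32), 0 to 18 between cycles (18 without CT12 or CT36) and 0 to 6 beside Obp1a (0 without CT44). The slope on Obp1a gave 6 genes without any single pool.

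Differences that did not pass changed sign, and the cause was not tested. Without single pools night minus day ran from -0.74 to 0.17 for Obp1a, -0.53 to 0.49 for Obp2a and -0.48 to 0.58 for Lcn11, and the slope of Lcn2 on the index from -0.40 to 0.21. For Obp2a it was 0.020 with the index as a covariate and 0.044 without CT32 and CT44, and for Lcn11 -0.26 with array weights. The index slope of Lcn2 was 0.19 with array weights, 0.18 on BPI fold genes and 0.061 on Bpifb9a and Bpifb9b. The other genes' differences between night and day and between cycles did not pass in the main setting either, and some of them also changed sign under the alternatives. Median centring moved the 24 h amplitude beside the index from 0.36 to 0.66 for Obp2a and from 0.26 to 0.54 for Lcn11, neither of which passed. Level-dependent scaling was tried through quantile normalization alone. The labels carry no replicate numbers, but pools of the same phase are paired in the fit between cycles, which holds phase as a factor. With cycle as a block the 24 h fit gave 4 genes.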
